A study of Homo sapiens with 4 samples.

Results

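SR proteins and heterogeneous nuclear ribonucleoproteins (hnRNPs) are the main RNA-binding families that steer splice-site choice, and their genes were followed here in CAL27 cells labelled as overexpressing CCL20. Members were taken by gene symbol alone: names of the form SRSF plus a number, or HNRNP plus a letter, without pseudogene names and names with a hyphen. This gave 33 of the 29437 genes in the tables, 12 SR protein genes and 21 hnRNP genes. CAL27 is a widely used cell line from a squamous carcinoma of the human tongue. The CCL20-overexpression cells were made with a lentivirus to overexpress CCL20, a secreted chemokine, and were compared with CAL27 cells labelled as negative control, both harvested after 48 hours with 2 libraries of polyadenylated RNA each. Whether the overexpression line is a clone or a pool, and which vector the negative control carries, is not given in the sources used here. Nothing in the labels says that replicates came from separate cultures, so the p-values measure the spread between these libraries, which may be technical.

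SR proteins carry RNA recognition motifs and a tail rich in arginine and serine. They bind exonic enhancers, recruit the U1 and U2 machinery and are moved in and out of nuclear speckles by phosphorylation. hnRNPs coat nascent transcripts, and several of them bind silencers and oppose SR proteins at the same exons. Many genes of both families control their own level by splicing in a cassette exon with a stop codon (a poison exon) or by keeping an intron, which sends the transcript to nonsense-mediated decay.

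Total gene counts were 15355030 and 16870325 in CCL20-overexpression replicates 1 and 2, against 13681862 and 17860695 in negative control replicates 1 and 2. The overexpression pair differed more between replicates than the control pair, with a chi-square per gene of 38.0 against 6.45. Across all tested coding genes the fold change fell with mRNA length (Spearman's rho -0.73 across 10572 genes, which are not independent replicates), so each member is also given with a correction for mRNA length. CCL20 itself was at 15.2 and 11.3 FPKM in the overexpression libraries, against 8.62 and 7.10 FPKM in the controls. FPKM is the count scaled by exon length and by the library total. Unless a setting is named, log2 fold changes are from TMM-scaled counts and differ from ratios of the FPKM beside them. The log2 fold change of CCL20 was 0.95 (SE 0.21, edgeR adjusted p = 0.0143), and with the length correction it was 0.06 (edgeR adjusted p = 0.916). Of the squamous epithelial markers, 5 of 6 had a mean of at least 1 FPKM, with a summed level of 609 and 732 FPKM in overexpression libraries against 653 and 676 FPKM in controls, and KRT14 averaged 0.921 FPKM over the 4 libraries. Most of that sum is KRT5; EPCAM rose (0.82, edgeR adjusted p = 0.00860) and TP63 fell (-0.65, edgeR adjusted p = 0.0486), and neither was called with the length correction (0.38 and -0.25, edgeR adjusted p = 0.208 and 0.459). Fibroblast markers summed to 2.74 and 3.41 FPKM with overexpression, against 4.54 and 5.47 FPKM in the controls, and leukocyte markers to 1.35 and 1.94 FPKM against 1.20 and 1.27 FPKM. The highest fibroblast marker was COL1A1, with a mean of 2.72 FPKM over the 4 libraries, and the highest leukocyte marker was CD14, with 1.28 FPKM. Endothelial markers stayed under 0.15 FPKM in sum, and DCN and PTPRC had at most 1 read in any library. The part of these markers in the results was not tested.

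SR and hnRNP genes were abundant, with a median level of 33.6 FPKM over the members against 6.23 FPKM over all tested genes, and most were not called changed. Of the 32 members with a mean of at least 1 FPKM, 5 rose and 2 fell at an adjusted p under 0.05 (edgeR quasi-likelihood test, Benjamini-Hochberg over 12168 genes). That is 21.9% of the members, where 32.2% of all tested genes passed, 16.5% higher and 15.7% lower. SRSF2, SRSF7, HNRNPD, HNRNPM and HNRNPA1 rose, and HNRNPL and HNRNPUL1 fell. The median log2 fold change was 0.20 over the members and 0.0019 over all tested genes with TMM scaling, and -0.01 over the members and -0.21 over all tested genes with total counts alone. With TMM scaling 22 members had a positive and 10 a negative estimate, beside 6096 and 6072 of all tested genes. The remaining 25 members lay between -0.31 and 0.44, and 16 of them within 0.25 of 0 (edgeR adjusted p from 0.0904 to 0.982). The SE of a member's log2 fold change lay between 0.15 and 0.23. The number of members called moved with the libraries, the scaling and the length correction. Without negative control replicate 1, edgeR called 0 members (1 member, higher, at an unadjusted p under 0.05), where 5.34% of all genes passed. Without negative control replicate 2 it also called 0 (2 members, both higher, at an unadjusted p under 0.05), where 8.13% passed. Without CCL20-overexpression replicate 1, 8 members were higher and 5 lower (62.3% of all genes passed), and without CCL20-overexpression replicate 2, 15 were higher and 2 lower (52.7%). In these 4 fits the spread comes from the pair left in the other group. On total counts alone 1 member was higher and 2 lower (34.8%). With limma on log2(FPKM + 1), log2(FPKM + 0.1) and log2(FPKM + 0.5) the counts were also 1 and 2, beside 31.7%, 29.7% and 30.9% of all genes. On total counts and with limma the member higher was SRSF2, and those lower were HNRNPL and HNRNPUL1. SRSF7, HNRNPD, HNRNPM and HNRNPA1 were not called in these settings (edgeR adjusted p = 0.0719, 0.107, 0.136 and 0.228 on total counts). With an exon length correction 7 members were higher and 0 lower (15.9%), with a replicate block 6 and 2 (47.3%), and at a mean of at least 5 FPKM 2 and 2 (37.7%). DESeq2 gave 5 and 2 (33.9%), and edgeR at an adjusted p under 0.01 gave 1 and 0 (10.8%).

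**Figure D1:**
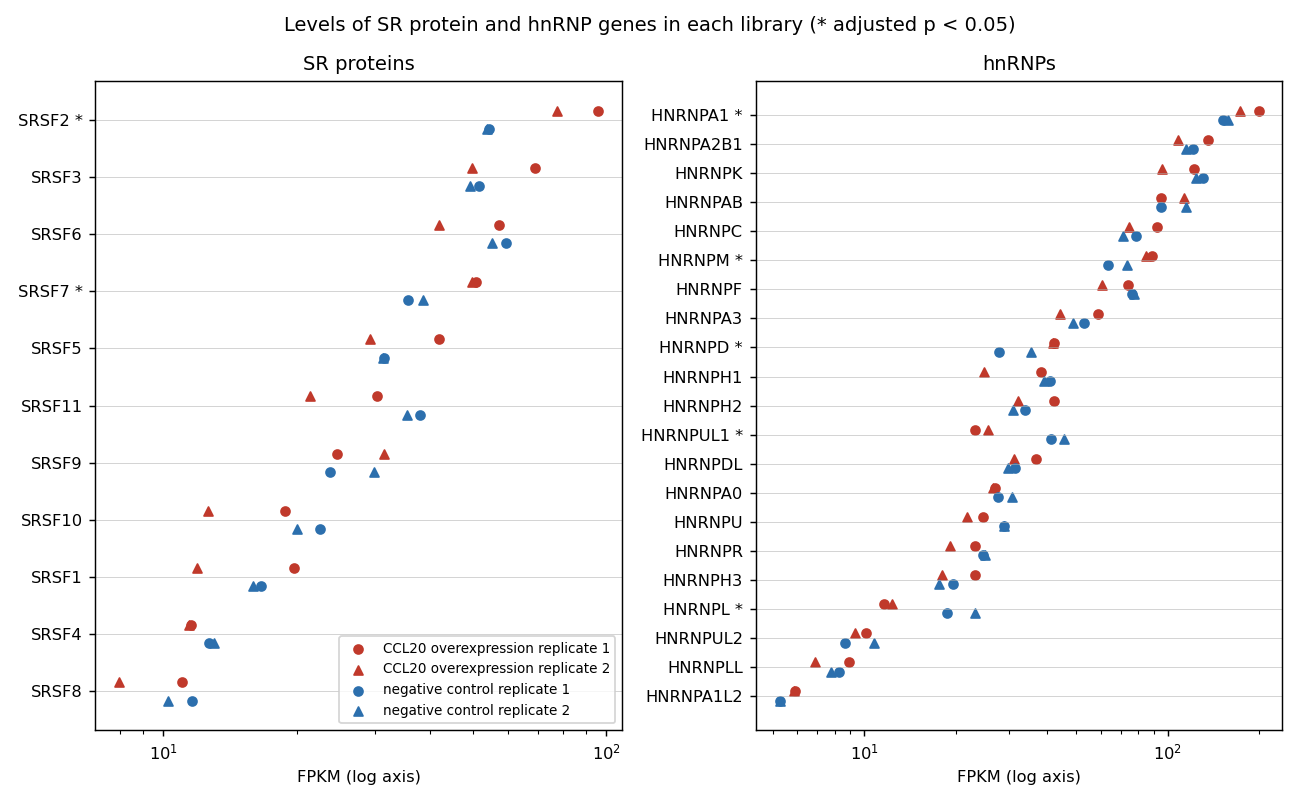
FPKM (log axis) of the 11 tested SR protein genes (left panel) and 21 hnRNP genes (right panel) in each library, red for CCL20 overexpression and blue for negative control, with circles for replicate 1 and triangles for replicate 2; an asterisk marks an edgeR adjusted p under 0.05. The groups separate clearly for SRSF2 and HNRNPUL1, while 15 of the 32 genes have overlapping groups and HNRNPA1 is the highest at 152 to 199 FPKM.

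SRSF2 had the largest rise among the tested members without a length correction, and HNRNPA0 lay above it with the mRNA length correction. With the exon length correction several members lay above it, among them HNRNPD (0.91), HNRNPM (0.70), HNRNPU (0.70) and HNRNPA2B1 (0.66). SRSF2 binds exonic enhancers, stays in the nucleus and is the classical marker of nuclear speckles. SRSF2 (ENSG00000161547; GRCh38 chromosome 17, 76734115 to 76737374, minus strand) was at 95.9 and 77.5 FPKM with overexpression, against 54.3 and 53.7 FPKM in the controls. Both overexpression libraries lay above both controls, and the overexpression pair was the wider one. On TMM-scaled counts this was a 1.84-fold rise, with a log2 fold change of 0.88 (SE 0.16) and an edgeR adjusted p of 0.00748. The mean FPKM was 86.7 with overexpression and 54.0 in the controls. With the correction for mRNA length it stayed past the threshold (0.76, edgeR adjusted p = 0.0306), but with that for exon length it did not (0.55, edgeR adjusted p = 0.0586). The call also ended without negative control replicate 1 (0.89, edgeR adjusted p = 0.163) and without negative control replicate 2 (0.88, edgeR adjusted p = 0.149), at a fold change of nearly the same size. Of the exonic bases of SRSF2, 36.7% are shared with MFSD11 on the opposite strand. MFSD11 had 491 and 417 counts with overexpression and 371 and 524 in the controls, against 4444 and 3946, and 2241 and 2896, for SRSF2. Since no source used here gives the strand setting of the counting, reads of the shared bases cannot be told apart.

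SRSF7, which has a zinc knuckle beside its RNA recognition motif and couples splicing to mRNA export, was the other SR gene to rise. SRSF7 (ENSG00000115875; chromosome 2, 38743599 to 38751494, minus strand) was at 50.7 and 49.8 FPKM with overexpression, against 35.8 and 38.5 FPKM in the controls. The groups did not overlap, and the gap was wider than either pair. On TMM-scaled counts this was a 1.56-fold rise, with a log2 fold change of 0.64 (SE 0.16) and an edgeR adjusted p of 0.0192. With the length correction it was 0.54 and past the threshold no longer (edgeR adjusted p = 0.0680). With the exon length correction it was 0.50 (edgeR adjusted p = 0.0589). Its call also ended without negative control replicate 1 (0.59, edgeR adjusted p = 0.388) and without negative control replicate 2 (0.70, edgeR adjusted p = 0.263).

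Among the hnRNPs that rose, HNRNPD encodes AUF1, which binds AU-rich elements and directs mRNA decay. HNRNPD (ENSG00000138668; chromosome 4, 82352498 to 82374503, minus strand) was at 42.3 and 42.0 FPKM with overexpression, against 27.8 and 35.5 FPKM in the controls. Here the controls were the wider pair, and both lay below the overexpression libraries. The log2 fold change was 0.62 (SE 0.18, edgeR adjusted p = 0.0323), or 0.68 with the length correction (edgeR adjusted p = 0.0521). HNRNPM regulates alternative exons, among them those of CD44. HNRNPM (ENSG00000099783; chromosome 19, 8444767 to 8489114, plus strand) was at 88.4 and 84.6 FPKM with overexpression, against 63.6 and 73.2 FPKM in the controls, without overlap. Its log2 fold change was 0.54 (SE 0.16, edgeR adjusted p = 0.0340), or 0.45 with the length correction (edgeR adjusted p = 0.110).

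HNRNPA1, which binds exonic silencers and counteracts SR proteins, had the highest mean of all members, 170.3 FPKM, and ranked 197 among the 12168 tested genes. HNRNPA1 (ENSG00000135486; chromosome 12, 54280193 to 54287088, plus strand) was at 199 and 172 FPKM with overexpression, against 152 and 158 FPKM in the controls. The groups did not overlap, and the overexpression pair was the wider one. The rise of 1.38-fold on TMM-scaled counts lay at the threshold (0.46 on the log2 scale, SE 0.15, edgeR adjusted p = 0.0496). With DESeq2-style size factors in edgeR it was past the threshold no longer (edgeR adjusted p = 0.0504). It was larger with the length correction (0.75, edgeR adjusted p = 0.0196), where the annotation gives HNRNPA1 an mRNA of 4121 nt. Which of its 14 annotated transcripts was expressed was not measured. Names of pseudogenes of HNRNPA1 held 33 further entries with 319 and 282 counts in the overexpression libraries and 264 and 359 in the controls, 2.21% of the counts of HNRNPA1. How the counting treated reads that match several copies is not given in the sources used here, which leaves the value of HNRNPA1 uncertain. Without negative control replicate 1 the log2 fold changes of HNRNPD, HNRNPM and HNRNPA1 were 0.45, 0.44 and 0.43 and their calls ended (edgeR adjusted p = 0.517, 0.511 and 0.507). Without negative control replicate 2 the values were 0.81, 0.65 and 0.49 and the calls ended too (edgeR adjusted p = 0.183, 0.274 and 0.402).

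The 2 falls were in hnRNPs. HNRNPL binds CA repeats and can enhance or silence exons. HNRNPL (ENSG00000104824; chromosome 19, 38836388 to 38852347, minus strand) was at 11.6 and 12.3 FPKM with overexpression, against 18.8 and 23.1 FPKM in the controls. Both overexpression libraries lay below both controls, and the controls were the wider pair. The log2 fold change was -0.60 (SE 0.18, edgeR adjusted p = 0.0376), and when corrected for mRNA length it was -0.70 (edgeR adjusted p = 0.0457). With the exon length correction it was -0.32 and not past the threshold (edgeR adjusted p = 0.246). HNRNPUL1, a relative of HNRNPU with roles in RNA processing and the DNA damage response, fell to a similar extent. HNRNPUL1 (ENSG00000105323; chromosome 19, 41262496 to 41307598, plus strand) was at 23.1 and 25.5 FPKM with overexpression, against 41.2 and 45.4 FPKM in the controls, without overlap. The log2 fold change was -0.62 (SE 0.17, edgeR adjusted p = 0.0268), -0.44 with the mRNA length correction (edgeR adjusted p = 0.151) and -0.36 with the exon length correction (edgeR adjusted p = 0.168). Without negative control replicate 1 HNRNPL was at -0.74 and HNRNPUL1 at -0.70, without a call (edgeR adjusted p = 0.233 and 0.263). Without negative control replicate 2 they were at -0.44 and -0.55, again without a call (edgeR adjusted p = 0.499 and 0.371).

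**Figure D2:**
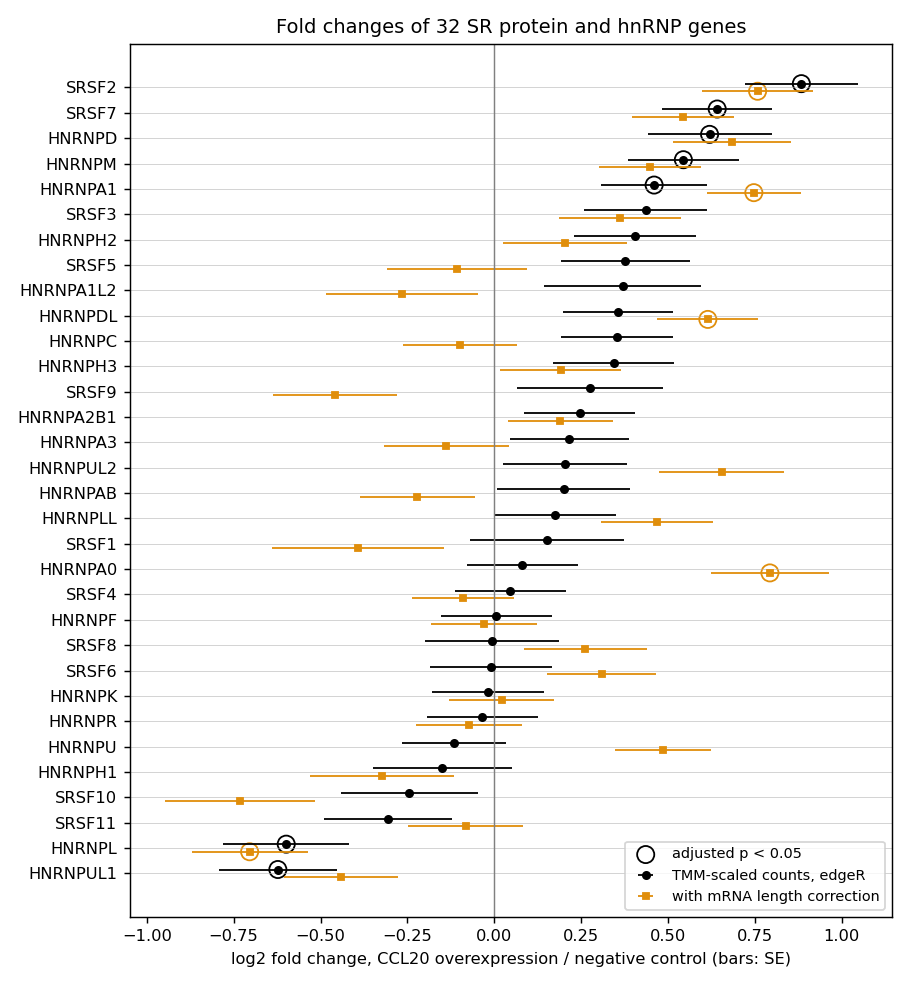
Log2 fold change (CCL20 overexpression over negative control, bars: SE) of the 32 tested members, from TMM-scaled counts (black) and with the mRNA length correction (orange); rings mark an edgeR adjusted p under 0.05. SRSF2 is at the top with 0.88 and HNRNPUL1 at the bottom with -0.62, and HNRNPDL and HNRNPA0 carry an orange ring only.

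The length correction moved the calls of 6 members. Those of SRSF7, HNRNPD, HNRNPM and HNRNPUL1 ended, while HNRNPDL and HNRNPA0 passed. For HNRNPD the estimate was larger with the correction (0.68 against 0.62). Its unadjusted edgeR p was smaller (0.0037 against 0.0082), so only the adjusted p moved past the threshold. In all 4 members were higher and 1 was lower with it, 15.6% of 32, where 6.82% of the tested coding genes passed (3.63% higher and 3.19% lower). HNRNPDL, a paralogue of HNRNPD, was at 36.8 and 31.1 FPKM with overexpression, against 31.3 and 29.7 FPKM in the controls, and the groups overlapped in FPKM. Its log2 fold change was 0.36 without the correction (edgeR adjusted p = 0.116) and 0.61 with it (edgeR adjusted p = 0.0455). HNRNPA0, an intronless member of the A/B group, was at 26.9 and 26.5 FPKM with overexpression, against 27.5 and 30.8 FPKM in the controls. Both overexpression libraries lay below both controls in FPKM, yet the estimate was 0.08 on TMM-scaled counts (edgeR adjusted p = 0.716) and 0.79 with the correction (edgeR adjusted p = 0.0322). HNRNPA0 has the longest annotated mRNA of the members, 8726 nt, and its corrected value rests on that length. Across the 32 members Spearman's rho between mRNA length and fold change was -0.21, a description over genes measured in the same 4 libraries. The members' mRNAs had a median of 2520 nt, against 2997 nt for tested coding genes.

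**Figure D3:**
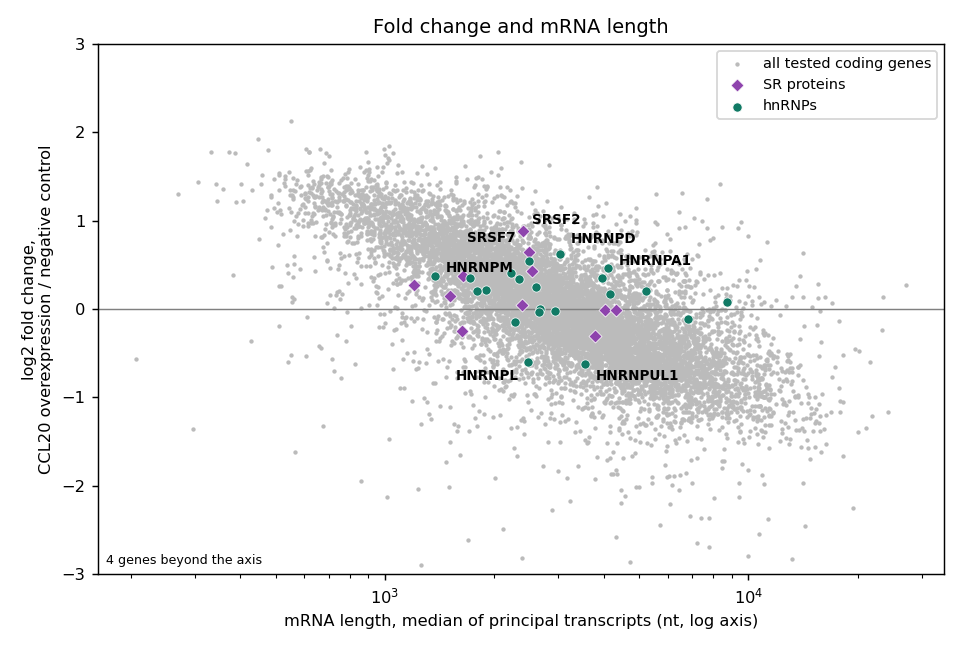
Log2 fold change (CCL20 overexpression over negative control) against mRNA length (nt, log axis) for the tested coding genes (grey), SR proteins (purple diamonds) and hnRNPs (green circles), with the 7 called members named; 4 genes lie beyond the vertical axis limit of 3. The grey cloud slopes down with length, and members lie on both sides of its trend. With the mRNA length correction HNRNPA0 (0.79), SRSF2 (0.76) and HNRNPA1 (0.75) were the highest members. SRSF10 (-0.73) and HNRNPL (-0.70) were the lowest.

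The other 9 tested SR genes did not pass the test. SRSF3, the smallest SR protein, had the next largest estimate, at 69.1 and 49.8 FPKM with overexpression against 51.6 and 49.2 FPKM in the controls (log2 fold change 0.44, SE 0.18, edgeR adjusted p = 0.0904). In FPKM the groups overlapped, with the lower overexpression library between the controls, and on TMM-scaled counts both overexpression libraries lay above both controls. SRSF1, the founding member, also had a wide overexpression pair, with 19.7 and 11.9 FPKM against 16.6 and 15.9 FPKM in the controls (0.15, SE 0.22, edgeR adjusted p = 0.6155). Its overexpression libraries differed by 0.62 on the log2 scale after TMM scaling and its controls by 0.051. SRSF11 had the largest negative estimate among SR genes, at 30.4 and 21.4 FPKM with overexpression against 37.9 and 35.6 FPKM in the controls (-0.31, SE 0.18, edgeR adjusted p = 0.224). SRSF10, which acts as a repressor once dephosphorylated, was at 18.8 and 12.6 FPKM against 22.6 and 20.0 FPKM in the controls (-0.24, SE 0.20, edgeR adjusted p = 0.357). For SRSF4, SRSF5 and SRSF6, which each carry a pair of RNA recognition motifs, the estimates were 0.05, 0.38 and -0.0096. SRSF8, a retrotransposed relative of SRSF2, and SRSF9, a close relative of SRSF1, had -0.0066 and 0.28. For SRSF9, 46.2% of the exonic bases are shared with GATC on the opposite strand, which limits its value. The mRNA length correction turned the sign of SRSF1 to -0.39, SRSF5 to -0.11 and SRSF9 to -0.46, and gave SRSF10 -0.73, the lowest corrected value of the members (edgeR adjusted p = 0.385, 0.790, 0.167 and 0.0875). SRSF12 had 2 and 0 counts with overexpression against 1 and 0 in the controls, under the floor of 3 counts per library. Its mean of 0.011 FPKM was below the 1 FPKM set for testing, so it was not among the tested genes.

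The other 16 hnRNP genes did not pass the test. HNRNPA2B1, the second of the abundant A/B proteins, was at 136 and 108 FPKM with overexpression against 121 and 115 FPKM in the controls (log2 fold change 0.25, SE 0.16, edgeR adjusted p = 0.256). HNRNPK, which binds C-rich RNA through KH domains, was at 122 and 96.0 FPKM against 130 and 123 FPKM in the controls (-0.02, SE 0.16, edgeR adjusted p = 0.936). HNRNPAB was at 95.0 and 113 FPKM against 94.7 and 115 FPKM in the controls (0.20, SE 0.19, edgeR adjusted p = 0.438). HNRNPC, which packages nascent RNA at uridine tracts, was at 91.7 and 74.5 FPKM against 78.7 and 71.0 FPKM in the controls (0.35, SE 0.16, edgeR adjusted p = 0.123). In FPKM the group means of these 4 genes lay closer together than their overexpression libraries, and on TMM-scaled counts HNRNPA2B1 and HNRNPC were above the controls in both overexpression libraries. The G-run binders HNRNPH1, HNRNPH2, HNRNPH3 and HNRNPF had estimates of -0.15, 0.40, 0.34 and 0.0057. HNRNPU, a scaffold of nuclear RNA, and HNRNPR had -0.12 and -0.03. HNRNPA3, HNRNPLL, HNRNPUL2 and HNRNPA1L2, an intronless copy of HNRNPA1, had 0.22, 0.17, 0.20 and 0.37. HNRNPU shares 15.6% of its exonic bases with COX20 on the opposite strand.

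In FPKM the groups did not overlap for 17 members, 53.1%, against 72.7% of all tested genes. Of these 6 were above and 11 below the controls, and the background was 25.8% above and 46.9% below. On TMM-scaled counts 15 members lay above and 4 below the controls, 59.4% in all, where 71.6% of tested genes did. Of all tested genes 35.8% were above and 35.8% below. The overexpression pair was wider than the control pair in 26 of 32 members and in 76.5% of tested genes. The median log2 difference between replicates was 0.23 for members in the overexpression pair and 0.090 in the control pair, against 0.33 and 0.13 for all tested genes. Together the 33 genes took 0.950% and 0.794% of all counts in the overexpression libraries, against 0.878% and 0.879% in the controls, so the controls lay between the overexpression libraries. In bulk RNA a change in the number of cells of a kind and in RNA per cell cannot be told apart.

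Ratios between relatives within a library do not depend on library scaling, and these pairs were chosen after their values were seen and are given without a test. The ratios are not corrected for mRNA length, which is 2406 nt for SRSF2 and 4028 nt for SRSF8, and 2471 nt for HNRNPL and 4173 nt for HNRNPLL. The length for SRSF2 is the median of 2 principal transcripts, of 1927 and 2885 nt. With the mRNA length correction the log2 fold changes of SRSF2 and SRSF8 were 0.76 and 0.26, and those of HNRNPL and HNRNPLL -0.70 and 0.47. SRSF2 stood to SRSF8 at 8.70 and 9.74 in the overexpression libraries, against 4.67 and 5.23 in the controls. HNRNPL stood to its paralogue HNRNPLL, which regulates CD45 splicing in lymphocytes, at 1.31 and 1.79 with overexpression, against 2.27 and 2.97 in the controls. For HNRNPUL1 to HNRNPUL2 the FPKM ratio was 2.29 and 2.74, against 4.76 and 4.21 in the controls. For HNRNPA1 to HNRNPA2B1 it was 1.47 and 1.60, against 1.26 and 1.38 in the controls. For SRSF7 to SRSF3 it was 0.734 and 0.999, against 0.692 and 0.783 in the controls, and for HNRNPD to HNRNPDL it was 1.15 and 1.35, against 0.888 and 1.19 in the controls. The groups overlapped in the last 2 ratios and not in the first 4, which the choice of pairs fixes in part.

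Many members have annotated transcripts other than the protein-coding mRNA, which bears on what a gene-level count holds. In GENCODE 29, 24 of the 32 tested members (75.0%) have a transcript annotated as a target of nonsense-mediated decay, including all 11 tested SR genes and 13 of 21 hnRNP genes, against 43.6% of tested coding genes. A transcript with a retained intron is annotated for 68.8% of members and 58.4% of tested coding genes. The 28 tested SR-related partners had a decay transcript in 67.9% and a retained intron in 85.7%, so neither trait is particular to the members. Reads of such transcripts are counted with those of the protein-coding mRNA, and the values above do not separate them. The sequences printed here are examples of such exons, 2 from called members. Each is the start of a cassette exon that the principal transcript skips, from the exon's first base through the in-frame stop codon in capitals, read from the GENCODE 29 transcript on GRCh38. The exon of SRSF7 lies at chr2:38748898-38749173 (276 nt), that of SRSF3 at chr6:36599821-36600276 (456 nt), that of SRSF6 at chr20:43459153-43459420 (268 nt) and that of HNRNPL at chr19:38841613-38841682 (70 nt), on the minus, plus, plus and minus strands.
SRSF7 (SRSF7-203): ggcagaaaatttgagacggTGA
SRSF3 (SRSF3-203): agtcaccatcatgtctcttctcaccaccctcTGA
SRSF6 (SRSF6-202): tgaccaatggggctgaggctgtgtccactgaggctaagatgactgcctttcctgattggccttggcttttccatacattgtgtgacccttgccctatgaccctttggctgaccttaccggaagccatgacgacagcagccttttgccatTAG
HNRNPL (HNRNPL-202): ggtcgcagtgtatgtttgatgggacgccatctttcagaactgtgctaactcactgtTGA
The stop comes 22 bases into the exon of SRSF7, 34 into that of SRSF3, 152 into that of SRSF6 and 59 into that of HNRNPL. In a spliced transcript with later exon junctions such a stop marks the RNA for decay. SRSF7 and HNRNPL, which carry such exons, were called in opposite directions.

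Promoters were read from the RefSeq table (GRCh38.p14) for 31 of the 33 members; HNRNPA1 and SRSF2 had no entry. These 31 members have 45 promoters, and only counts of promoters compare with the share of all promoters. Motifs were sought on both strands within 100 bases upstream of a RefSeq start. CACGTG, the E-box bound by basic helix-loop-helix factors such as MYC, was found in 5 members, HNRNPA3, HNRNPD, HNRNPH2, HNRNPH3 and HNRNPM. These were 5 of the 45 promoters, where 3.43% of all 35116 promoters matched. TATAAA was found in HNRNPAB, SRSF3 and SRSF7, 3 of the 45 promoters, and in 4.99% of all promoters. CCAAT was in 11 members (14 of 45 promoters) and 18.1% of all promoters. GGGCGG was in 15 members (19 of 45) and 31.3%, and CCGGAAG in 2 members (2 of 45) and 5.61%. TGACGTCA and the NRF1 motif were found in 0 members and in 1.17% and 0.712% of promoters. None of these motifs contains another, and a match is a description of letters only. The 3 members that rose and hold an E-box or a TATA motif are shown as 30 bases, with the motif in capitals. HNRNPD is shown at chr4:82374001-82374030 on the minus strand, HNRNPM at chr19:8444921-8444950 on the plus strand and SRSF7 at chr2:38751371-38751400 on the minus strand.
HNRNPD: gcgctctcgcgtCACGTGaccgggacgcgc
HNRNPM: gttgcgtcgggtCACGTGggcgcgcaggcg
SRSF7: agcggccgcataTATAAAcgcgaacccggg
The motif begins 27 bases upstream of the start in HNRNPD, 42 in HNRNPM and 27 in SRSF7. HNRNPA3, HNRNPH2 and HNRNPH3, which also hold CACGTG, did not pass the test, with log2 fold changes of 0.22, 0.40 and 0.34. HNRNPL, which fell, has CCAAT and a reversed GGGCGG in the 100 bases before one of its RefSeq starts, at chr19:38852348-38852447 on the minus strand, shown with both in capitals.
HNRNPL: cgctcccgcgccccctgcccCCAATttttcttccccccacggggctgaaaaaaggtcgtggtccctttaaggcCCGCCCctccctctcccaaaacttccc

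Genes that act with SR proteins and hnRNPs were counted in 6 lists, beside 16.5% of all tested genes called higher and 15.7% called lower. Of 28 tested SR-related proteins and splice-site partners, 1 rose and 8 fell, with a median log2 fold change of -0.22. SRRM2, a very large scaffold of nuclear speckles, was at 12.02 and 14.4 FPKM with overexpression against 43.7 and 42.7 FPKM in the controls (-1.50, SE 0.18, edgeR adjusted p = 0.0043). It was not past the threshold with the length correction (-0.75, edgeR adjusted p = 0.0637), on an mRNA of 9353 nt. CHERP fell by 1.39 and SCAF8 by 0.87 on the log2 scale, LUC7L, a relative of a yeast U1 snRNP protein, rose by 0.74, and SNRNP70, the highest of the list at 41.2 and 54.9 FPKM against 43.4 and 47.5 FPKM in the controls, had 0.29 (edgeR adjusted p = 0.287). With the length correction CHERP was past the threshold (-1.10, edgeR adjusted p = 0.0141), and SCAF8 and LUC7L were not (-0.44 and 0.14, edgeR adjusted p = 0.161 and 0.650).

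Of 23 tested kinases, phosphatases, methyltransferases and import receptors of SR proteins and hnRNPs, 1 rose and 8 fell, with a median of -0.39. TNPO3, the import receptor of phosphorylated SR proteins, was at 11.0 and 10.8 FPKM with overexpression against 25.1 and 27.4 FPKM in the controls (-1.06, SE 0.16, edgeR adjusted p = 0.00494). TNPO2, an import receptor of hnRNPs, was at 5.95 and 5.64 FPKM against 13.6 and 14.0 FPKM in the controls (-1.05, SE 0.16, edgeR adjusted p = 0.00492). Both were past the threshold with the length correction (-0.77 and -0.78, edgeR adjusted p = 0.0291 and 0.0251), as was CARM1, an arginine methyltransferase (-0.94 without and -0.81 with it, edgeR adjusted p = 0.0103 and 0.0431). PPP1CA, a catalytic subunit of protein phosphatase 1, rose by 0.67 and was the highest of the list, at 121 and 161 FPKM against 92.2 and 113 FPKM in the controls, but was at 0.08 with the length correction (edgeR adjusted p = 0.831).

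Of 23 tested hnRNPs and relatives under other symbols, 4 rose and 4 fell, with a median of -0.07. PCBP2, a poly(C)-binding protein, RALY and the cold-inducible RBM3 rose by 0.87, 0.72 and 0.71 on the log2 scale. With the length correction they were at 0.28, 0.29 and 0.22 and no longer called (edgeR adjusted p = 0.292, 0.421 and 0.431). RBM3 was the highest of the list at 119 and 104 FPKM against 80.2 and 76.4 FPKM in the controls. MSI2, KHSRP and PTBP3 fell by 0.76, 0.73 and 0.72. With the length correction KHSRP was past the threshold (-0.68, edgeR adjusted p = 0.0311), and MSI2 and PTBP3 were not (-0.20 and -0.57, edgeR adjusted p = 0.490 and 0.123). Of 17 tested regulators such as RBFOX and MBNL proteins, 0 rose and 2 fell by edgeR, with a median of -0.26. An unadjusted edgeR p under 0.05 was found for 7 of the 17, and for 5597 of all 12168 tested genes. RBFOX2 fell by 0.84 and MBNL2 by 0.61 on the log2 scale, with -1.47 and -0.25 under the length correction (edgeR adjusted p = 0.00783 and 0.449), and KHDRBS1, the highest of the list, was at 80.7 and 61.0 FPKM against 69.2 and 67.1 FPKM in the controls (0.25, edgeR adjusted p = 0.269).

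Of 22 nonsense-mediated decay factors, 2 rose and 6 fell, with a median of -0.24. MAGOH and RBM8A, partners in the exon junction complex, rose by 1.07 and 0.82. MAGOH was at 40.2 and 39.0 FPKM with overexpression against 22.2 and 21.1 FPKM in the controls. SMG6, the endonuclease of the pathway, was at 0.629 and 0.4999 FPKM with overexpression against 2.54 and 2.31 FPKM in the controls (-1.90, SE 0.21, edgeR adjusted p = 0.0043), and XRN1 and the kinase SMG1 fell by 1.38 and 1.36. With the length correction RBM8A (0.84, edgeR adjusted p = 0.0189) and SMG6 (-1.38, edgeR adjusted p = 0.0113) passed, and MAGOH, XRN1 and SMG1 did not (0.15, -0.62 and -0.48). ETF1, the highest of the list, had 0.08 (edgeR adjusted p = 0.734). Of 16 partners in nuclear speckles and paraspeckles, 1 rose and 2 fell, with a median of -0.16. The helicase DDX17 was at 25.2 and 20.4 FPKM with overexpression against 54.9 and 50.8 FPKM in the controls (-1.01, SE 0.16, edgeR adjusted p = 0.00533; -1.23 and 0.00975 with the length correction), CPSF7 fell by 0.65 and ILF2 rose by 0.69, neither of them called with the length correction (-0.46 and 0.21, edgeR adjusted p = 0.111 and 0.440). NEAT1, the paraspeckle RNA, was at 149 and 114 FPKM against 169 and 163 FPKM in the controls (-0.14, edgeR adjusted p = 0.532). With the mRNA length correction the median of the SR proteins was -0.08 and that of the hnRNPs 0.19. Among the lists it was -0.14 for SR-related proteins, -0.28 for kinases and import, -0.15 for hnRNPs under other symbols, 0.07 for other regulators, -0.02 for decay factors and -0.05 for speckle partners, beside 0.03 over all coding genes. The medians of SR proteins and of other regulators thus changed sign. Of the 39 calls in the 6 lists, 10 kept their direction and threshold with the length correction, 6 without negative control replicate 1 and 6 without negative control replicate 2.

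**Figure D4:**
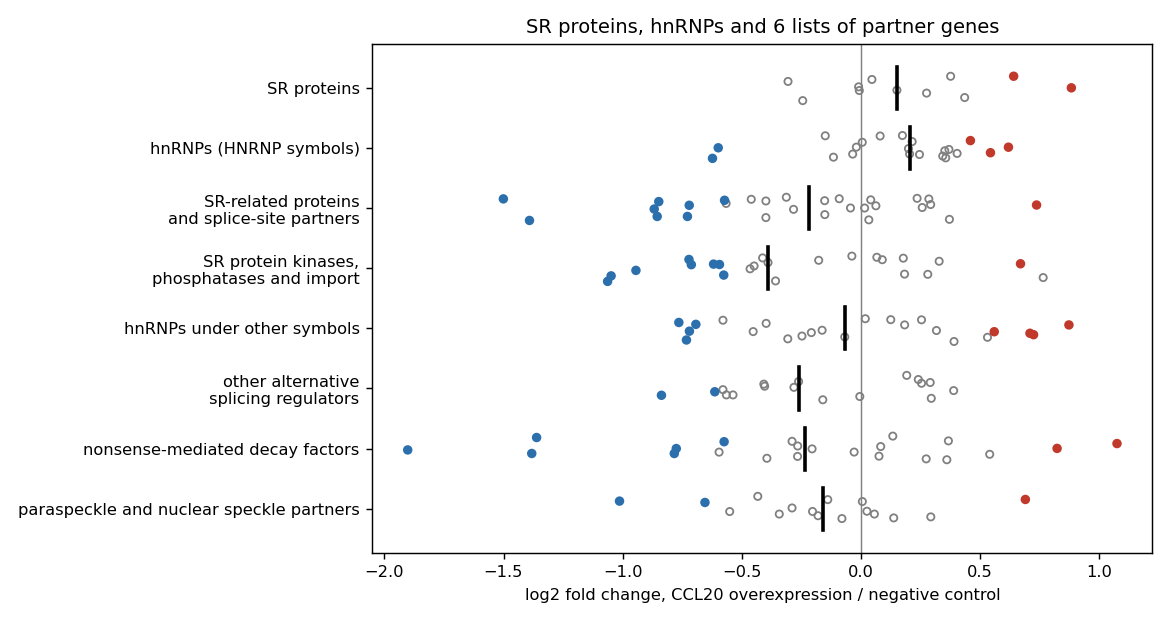
Log2 fold change (CCL20 overexpression over negative control) of each tested SR protein, hnRNP and partner gene, by list; filled red points rose and filled blue points fell at an edgeR adjusted p under 0.05, open points did not pass, and black lines are medians. The medians are 0.15 for SR proteins and 0.20 for hnRNPs, and lie between -0.39 and -0.07 for the 6 lists of partners, all without a length correction.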

How the data were processed

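Per the labels, libraries of polyadenylated RNA from 4 CAL27 samples (1.5 µg each) were made with the NEBNext Ultra RNA kit. HISAT2, HTSeq 0.13.5 and GRCh38 are named in the submitters' processing notes; no source used here gives the trimming, the annotation or the strand setting. Per the file headers, each deposited table holds a count and an FPKM for 29437 genes. The deposited counts are whole numbers and not normalized. Deposited FPKM is the count over exon length and library total, and the implied length equalled the GENCODE 29 exon union for 99.7% of genes. The quasi-likelihood test of edgeR 4.0.16 (glmQLFit, then glmQLFTest, with TMM factors, in R 4.3.3) was run on genes averaging 1 FPKM or more, at an adjusted p under 0.05, and checked on simulated data; DESeq2 1.42.0 and limma 3.58.1 were alternatives. SE is the log2 fold change over the root of F. The length correction fits each library's log2 CPM deviation (prior count 2) to log2 mRNA length, the median of GENCODE principal transcripts, by a natural spline with 5 degrees of freedom over 10572 coding genes and uses it as an offset. Other settings were other scalings, filters, pseudocounts, an exon length correction, the replicate number as a block and 1 library left out at a time. Values in every library are given for called members, the 6 highest, the extremes of each family and members whose call moved with the correction; lists give up to 3 called genes each way and the highest. Members, lists and corrections were chosen with earlier results of these data known. The floor of 3 counts covers counting error only.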

Additional observations from a re-analysis of the deposited data

How the results depend on the processing

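The 5 members called higher and 2 called lower, and the 2010 and 1905 genes, were recomputed under other settings. On total counts alone 1 member was higher, with 1251 genes higher and 2985 lower, and all tested genes had a median of -0.21 on the log2 scale. limma on log2(FPKM + 1), log2(FPKM + 0.1) and log2(FPKM + 0.5) gave 1 member higher each, with 1245, 1176 and 1221 genes higher. A mean FPKM of at least 5 left 2 members higher. At an adjusted p under 0.01, 1 member was higher and 0 lower, with 705 and 615 genes. With the mRNA length correction 1 member was lower, and 384 genes were higher and 337 lower. With the exon length correction 0 members were lower by edgeR (0 also at an unadjusted p under 0.05), 1211 genes were higher and 721 lower, and HNRNPU reversed to 0.70 (edgeR adjusted p = 0.0205). The cause of these changes was not tested. Leaving out 1 library gave 0 to 15 members higher and 0 to 5 lower, and 318 to 3742 genes higher and 332 to 3837 lower. The labels do not say that equal replicate numbers mark a shared culture, and the deviations of same-numbered libraries correlated at 0.37; a replicate block gave 6 members higher and 2 lower, with 2840 genes higher and 2918 lower. In the partner lists the counts with the mRNA length correction include genes not called without it. They were 1 SR-related gene higher and 2 lower, and 1 gene of kinases and import higher and 3 lower. Of other hnRNPs 2 were higher and 2 lower, and of other regulators 0 and 1. Of decay factors 1 was higher and 1 lower, and of speckle partners 0 and 1. Over all tested coding genes 3.63% were higher and 3.19% lower with this correction. SRSF2 was called in 13 of 16 settings, HNRNPL in 13, HNRNPUL1 in 12 and the other 4 called members in 8 each, all in the reported direction. Of the 25 uncalled members, 21 changed sign in at least 1 setting. SRSF12, with at most 2 counts in a library, was below the mean of 1 FPKM set for testing and entered only the fit without a filter.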
